A study of Mus musculus with 25 samples.

Results

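Hepatocytes from the livers of mice fed the DDC diet were compared, over all genes, with hepatocytes from mice injected with a GFP plasmid. The DDC hepatocytes (2 libraries) came from Stat3_floxed mice that received AAV-TBG-GFP 2 weeks and the DDC diet 1 week before collection. The GFP hepatocytes (2 libraries) came from WT mice, 1 week after hydrodynamic tail vein injection (HTVi) of GFP plasmids, which forces plasmid DNA into the liver. These 4 libraries are all the libraries of both groups, out of 25 in the series (13 from hepatocytes and 12 from immune cells), and both groups share the strain background given as C57BL/6J 129SV. The 3 IL6 libraries, from WT mice 1 week after the same kind of injection with an IL6 plasmid, are used below for a second comparison. AAV-TBG-GFP is a viral vector that expresses a reporter from a hepatocyte promoter. It carries no Cre. Diet, genotype, viral vector and plasmid injection all differ between the DDC and GFP groups, and their effects cannot be told apart here. The labels used here give neither sex nor age. Whether the replicates are separate animals is not stated, and the p-values therefore cover the variation among these libraries alone, which may be technical.

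DDC (3,5-diethoxycarbonyl-1,4-dihydrocollidine) is a porphyrogenic compound. It gives rise to a modified haem that inhibits ferrochelatase, the last enzyme of haem synthesis, and porphyrins then build up and plug small bile ducts. Fed to mice, it causes bile duct injury, the ductular reaction and Mallory-Denk bodies, which are aggregates of keratins, ubiquitin and p62 in hepatocytes.

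The DDC libraries held 17078512 and 18428988 counts, and the GFP libraries 16007378 and 14714513. Levels are CPM, counts per 1000000 of composition-scaled library size. Across genes, log2(CPM + 1) correlated at 0.979 between the DDC libraries, at 0.989 between the GFP libraries and at 0.913 to 0.924 between the groups; genes are not independent, so no p is given. The EGFP transcript stood at 1185 and 1228 CPM in the DDC libraries, against 2.18 and 2.41 CPM in the GFP libraries, although the GFP group is labelled for a GFP plasmid. The labels do not give the reporter sequence of that plasmid, so the EGFP row may not measure it. Mitochondrially encoded genes took 5.48% and 5.21% of counts in the DDC libraries and 5.56% and 5.60% in the GFP libraries. Xist stood at 0.0530 and 0.0445 CPM in the DDC libraries and 0.128 and 0.0688 CPM in the GFP libraries, and the Y-linked Kdm5d at 12.4 and 17.1 CPM in the DDC libraries and 21.9 and 14.2 CPM in the GFP libraries, and all 4 libraries carried transcripts of the Y chromosome. The labelled cell type was checked by its markers. The 17 hepatocyte markers summed to 130822 and 108115 CPM in the DDC libraries and 125905 and 126102 CPM in the GFP libraries. Of these markers, 6 were called lower (3, 3, 3 and 3, with DDC replicate 1, DDC replicate 2, GFP replicate 1 and GFP replicate 2 left out in turn) and none higher. Where no member of a list was called, square brackets give how many passed an unadjusted p under 0.05, as 34.9% of all genes did, and how many DESeq2 called, here [1 and 1]. Albumin (Alb) did not differ detectably (0.27 ± 0.78, log2 fold change of DDC over GFP ± SE, the form used from here on; adjusted p = 0.838).

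Markers of other cells were present at low levels and several were higher in the DDC libraries. Stellate cell and fibroblast markers summed to 417 and 609.6 CPM in the DDC libraries and 146 and 131 CPM in the GFP libraries, and cholangiocyte markers to 72.8 and 94.9 CPM in the DDC libraries and 27.6 and 17.6 CPM in the GFP libraries. Kupffer cell markers summed to 687 and 815 CPM in the DDC libraries, against 523 and 520.5 CPM in the GFP libraries. The monocyte and macrophage markers reached 295 and 462 CPM in the DDC libraries, against 258 and 268 CPM in the GFP libraries. For both lists the mean sum was 1.44-fold higher in the DDC libraries. The median log2 fold change of tested members was larger, at 2.42 for Kupffer and 3.37 for monocyte and macrophage markers. A sum mainly follows its highest members, so these 2 sums do not show how most members changed. Sinusoidal endothelial markers stood at 538 and 428 CPM in the DDC libraries and 329 and 376 CPM in the GFP libraries, and neutrophil markers at 1.64 and 2.63 CPM in the DDC libraries and 0.128 and 0.206 CPM in the GFP libraries. T and NK cell markers stood at 0.371 and 1.02 CPM in the DDC libraries and 1.02 and 0.550 CPM in the GFP libraries, and B and dendritic cell markers at 10.8 and 17.6 CPM in the DDC libraries and 5.12 and 5.91 CPM in the GFP libraries. Of the marker genes tested, 5 of 9 cholangiocyte, 5 of 10 Kupffer, 12 of 18 macrophage and 4 of 14 stellate markers were called higher, but none of 15 endothelial [1 and 0], none of 8 neutrophil [2 and 2] and none of 2 T and NK cell markers [0 and 0]. DESeq2 called 12 stellate markers higher. Among 7 B and dendritic cell markers, 2 were higher (1, 0, 0 and 0), and of 3 erythroid markers 1, Alas2, was lower (1, 1, 1 and 1). Without DDC replicate 1, DDC replicate 2, GFP replicate 1 or GFP replicate 2, in this order, the macrophage count was 7, 2, 1 and 2, the Kupffer count 5, 1, 0 and 1, the cholangiocyte count 2, 2, 2 and 1 and the stellate count 2, 0, 0 and 0. In bulk RNA, fewer cells of a type and less RNA per cell cannot be told apart.

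**Figure D1:**
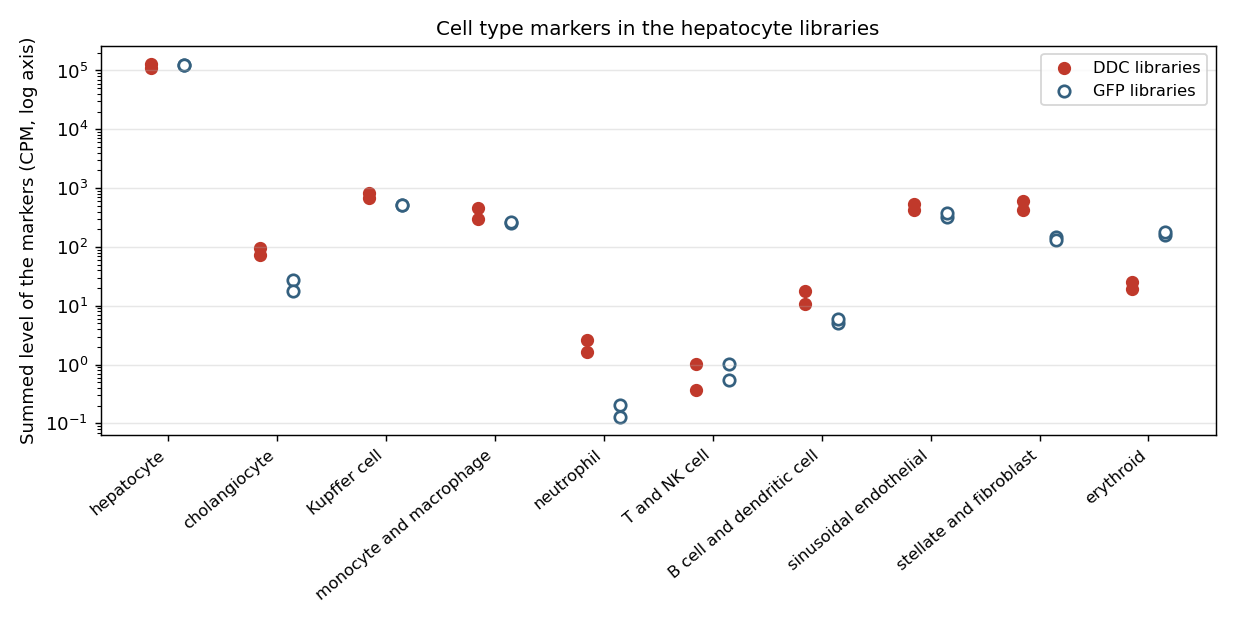
Summed level of the markers of 10 cell types (CPM, log axis) in each DDC library (filled points, left) and each GFP library (open points, right). The hepatocyte sums overlap between groups, the cholangiocyte and stellate sums are higher in both DDC libraries, and the erythroid sum, nearly all of it Alas2, is lower.

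Of 14339 genes tested, 1486 (10.4%) were called higher and 1188 (8.29%) lower in DDC hepatocytes, 18.6% in all (edgeR quasi-likelihood test, Benjamini-Hochberg adjusted p under 0.05). The log2 fold change passed 1 for 1281 of the raised and 858 of the lowered genes. It passed 3 for 519 raised and 170 lowered genes. Among genes averaging 20 CPM or more over the 4 libraries, 472 were higher and 690 lower. The higher and lower counts depended on every library: they were 833 and 387 without DDC replicate 1, 502 and 236 without DDC replicate 2, 351 and 397 without GFP replicate 1, and 302 and 305 without GFP replicate 2. Scaling by library totals alone moved the median log2 fold change of all genes by 0.24 and gave 1980 higher and 726 lower genes, so directions below are relative to the composition-scaled totals.

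The genes that differed most fell into a few kinds. The rule that chose them requires that the groups do not overlap, so lack of overlap adds no support for them. Among the 12 most raised were an efflux pump, 2 detoxifying enzymes, basement membrane and membrane-scaffold proteins and surface proteins of epithelia and macrophages. The 12 most lowered were 7 major urinary protein genes, 2 steroid dehydrogenases, an anion carrier, a uridine phosphorylase and a carbonic anhydrase.

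Ly6d, a GPI-anchored surface protein (chromosome 15, 74762056 to 74763620, reverse strand, GRCm38), stood at 50.3 and 163 CPM in the DDC libraries and had no count in either GFP library, so it was at least 1122-fold higher (a floor of 3 counts over the GFP group; adjusted p = 0.00327). Sprr1a, a small proline-rich protein of the epithelial cornified envelope (chromosome 3, 92483952 to 92485895, reverse strand), stood at 109 and 72.6 CPM in the DDC libraries against no count in the GFP libraries, at least 897-fold (adjusted p = 0.000776). Every DDC library was far above the GFP libraries for both genes, although the DDC libraries also differed from each other for Ly6d. Among the sorted immune libraries of this series, Ly6d reached 214 CPM in a library labelled T and Sprr1a 92.9 CPM in a macrophage library, both of DDC livers. That T library summed to 268 CPM of T and NK cell markers. It held 14141 CPM of monocyte and macrophage markers and 6041 CPM of hepatocyte markers. The part of immune cells in the levels of both genes was not tested. Abcb1a, the efflux pump P-glycoprotein (chromosome 5, 8660077 to 8748575, forward strand), stood at 69.96 and 56.6 CPM in the DDC libraries and 1.54 and 0.206 CPM in the GFP libraries (6.15 ± 0.58, adjusted p = 0.000261). Anxa2, a membrane-binding annexin, stood at 229.8 and 286 CPM in the DDC libraries and 4.54 and 4.33 CPM in the GFP libraries (5.86 ± 0.79). Nid1, the basement membrane protein nidogen, reached 303 and 451 CPM in the DDC libraries, against 7.55 and 8.46 CPM in the GFP libraries (5.56 ± 0.99). The groups overlapped for none of these 5 genes, as the rule requires, and each was called with any 1 library left out. The oxysterol-binding protein Osbpl3 (6.59 ± 1.00), the cytochrome P450 Cyp2c55 (6.55 ± 0.93), the glutathione transferase Gsta1 (7.04 ± 0.84) and the lipopolysaccharide co-receptor Cd14 (6.59 ± 0.80) rose as well. Cyp2c55 varied between the DDC libraries, at 179 and 38.8 CPM, against 1.60 and 0.688 CPM in the GFP libraries.

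The other 3 of the 12 rose with more dependence on single libraries. Spp1, the secreted phosphoprotein osteopontin, stood at 486 and 539 CPM in the DDC libraries and 1.66 and 3.44 CPM in the GFP libraries (7.65 ± 1.82). The calcium-binding protein S100a11 stood at 36.9 and 63.4 CPM in the DDC libraries and 0.128 and 0.550 CPM in the GFP libraries (7.20 ± 1.31), and Marco, a macrophage scavenger receptor, at 49.7 and 30.1 CPM in the DDC libraries and 0.128 and 0.481 CPM in the GFP libraries (7.02 ± 1.31). The groups did not overlap for any of them, as the rule requires. Spp1 lost its call without GFP replicate 1 or GFP replicate 2 (adjusted p 0.102 to 0.118). S100a11 was not called without GFP replicate 1 (adjusted p = 0.0552). The call of Marco ended without GFP replicate 1 (adjusted p = 0.0603). Marco is a macrophage marker and reached 1819 CPM in sorted macrophages of this series; how far other cells contribute to its level here was not tested.

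The lowered end was led by Hsd3b5, a male-biased 3-beta-hydroxysteroid dehydrogenase (chromosome 3, 98618634 to 98630252, reverse strand). It had no count in either DDC library, against 325 and 151 CPM in the GFP libraries, and was at least 3319-fold lower (adjusted p = 0.000698). Slco1a1, an importer of organic anions (chromosome 6, 141907282 to 141946962, reverse strand), stood at 44.7 and 34.7 CPM in the DDC libraries and 1199 and 950.0 CPM in the GFP libraries (-4.76 ± 0.52, adjusted p = 0.000498). Hsd3b2, a paralog of Hsd3b5, stood at 9.38 and 7.17 CPM in the DDC libraries and 252 and 172 CPM in the GFP libraries (-4.68 ± 0.38). The groups were separate for all 3, as the rule requires, and their calls held with any library left out. Car3, a muscle and liver carbonic anhydrase, stood at 97 and 244 CPM in the DDC libraries and 5003 and 4326 CPM in the GFP libraries (-4.77 ± 1.08), and Upp2, a uridine phosphorylase, at 23.4 and 31.4 CPM in the DDC libraries and 667 and 1108 CPM in the GFP libraries (-5.02 ± 1.03). Here the DDC libraries also lay far below both GFP libraries. The call of Car3 ended without DDC replicate 1 or DDC replicate 2 (adjusted p 0.0601 to 0.0865). For Upp2 no call was made without DDC replicate 1 or DDC replicate 2 (adjusted p 0.0615 to 0.0644). Hsd3b2 and Hsd3b5 are close paralogs, and reads they share could be split between them in counting.

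**Figure D2:**
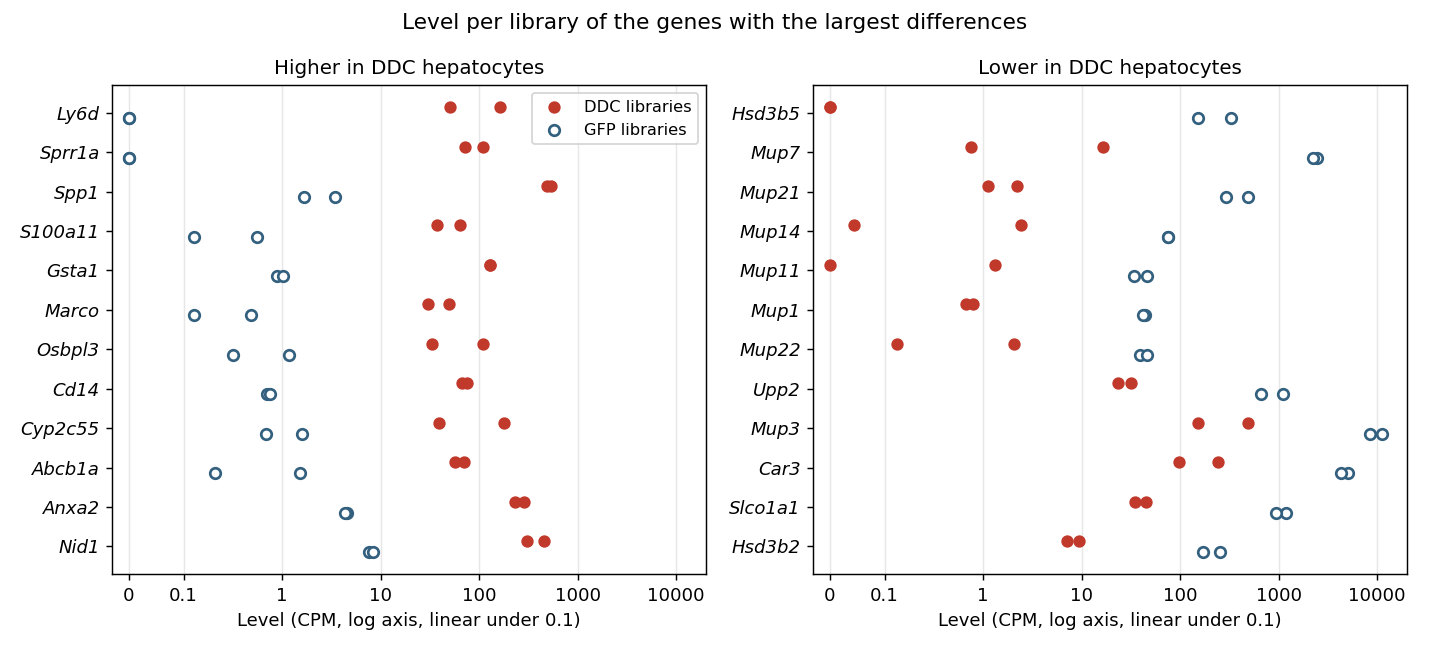
Level (CPM, log axis, linear under 0.1) of the 12 most raised (left) and 12 most lowered (right) genes in each DDC library (filled points) and each GFP library (open points, just below). The groups do not overlap for any of the 24 genes, which the rule that chose them requires; Ly6d and Sprr1a have no count in GFP libraries and Hsd3b5 none in DDC libraries.

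Some genes of haem synthesis were lower in DDC hepatocytes and some of haem degradation and scavenging higher. None of 14 synthesis genes tested was called higher [0 and 0] and 5 were called lower (median -0.71, against 0.02 for all genes), where 8.29% of all genes were lower. Cpox, coproporphyrinogen oxidase of the mitochondrial steps, stood at 95.9 and 93.4 CPM in the DDC libraries and 275 and 293 CPM in the GFP libraries (-1.59 ± 0.29, adjusted p = 0.00524). Alas2, the erythroid form of the first enzyme, stood at 18.2 and 22.8 CPM in the DDC libraries and 161 and 175 CPM in the GFP libraries (-3.03 ± 0.38, adjusted p = 0.000796). Haemoglobin transcripts were near zero in the same libraries, with no count of Hba-a1 in any of the 4 libraries and Hbb-bs at 0 and 0.0445 CPM in the DDC libraries and 0 and 0.138 CPM in the GFP libraries. The mitochondrial transporters Abcb10 (-1.22 ± 0.30) and Slc25a38 (-1.14 ± 0.25), which act around the first steps, and Tmem14c (-0.86 ± 0.26), a porphyrinogen importer, were also lower. With DDC replicate 1, DDC replicate 2, GFP replicate 1 and GFP replicate 2 left out in turn, 4, 2, 3 and 3 synthesis genes were called lower; this order of left-out libraries is kept in the parentheses below. The call of Abcb10 ended without DDC replicate 2 or GFP replicate 1 (adjusted p 0.126 to 0.138). For Slc25a38 no call was made without DDC replicate 2 or GFP replicate 2 (adjusted p 0.0713 to 0.0898). Tmem14c lost its call with any 1 of the 4 libraries left out (adjusted p 0.0939 to 0.221). With library totals alone, the adjusted p of Tmem14c was 0.0692.

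Ferrochelatase (Fech), the enzyme that DDC targets, was not called different: it stood at 157 and 158 CPM in the DDC libraries and 208 and 198 CPM in the GFP libraries (-0.37 ± 0.22, adjusted p = 0.266). Alas1, the rate-limiting liver enzyme that haem represses, stood at 528 and 385 CPM in the DDC libraries and 519 and 1572 CPM in the GFP libraries (-1.20 ± 0.65, adjusted p = 0.213). Its GFP libraries differed from each other by more than the groups did. Of 13 genes of haem degradation and scavenging, 5 were called higher and 1 lower, and both counts fell with any 1 library left out. Hmox1 was the only haem-degrading enzyme among the raised members, and Hmox2, Blvra and Blvrb were not called. Hmox1, the haem oxygenase that opens the ring, stood at 86.6 and 41.6 CPM in the DDC libraries and 7.29 and 4.74 CPM in the GFP libraries (3.41 ± 0.60, adjusted p = 0.004). Slc48a1, a transporter that moves haem out of lysosomes (1.25 ± 0.29), haemopexin (Hpx, 1.54 ± 0.34) and haptoglobin (Hp, 1.67 ± 0.39), the plasma scavengers of haem and haemoglobin, also rose. Gsta1, a haem-binding transferase, is the fifth raised member. Hpx and Hp also belong to the list of positive acute phase genes used below. The lowered member, Fabp1, is a fatty acid binding protein that also binds haem (-2.50 ± 0.72). Hmox1 lost its call without GFP replicate 2 (adjusted p = 0.0535). Slc48a1 was not called without DDC replicate 2, GFP replicate 1 or GFP replicate 2 (adjusted p 0.0762 to 0.105). The call of Hpx ended without DDC replicate 1, GFP replicate 1 or GFP replicate 2 (adjusted p 0.083 to 0.0998). For Hp no call was made with any 1 of the 4 libraries left out (adjusted p 0.0535 to 0.113). Fabp1 lost its call with any 1 of the 4 libraries left out (adjusted p 0.0965 to 0.176). Of 19 iron genes, Id1 and Steap3 were higher (0, 0, 0 and 0) and Ireb2 lower (0, 0, 0 and 0), close to the shares of all genes.

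**Figure D3:**
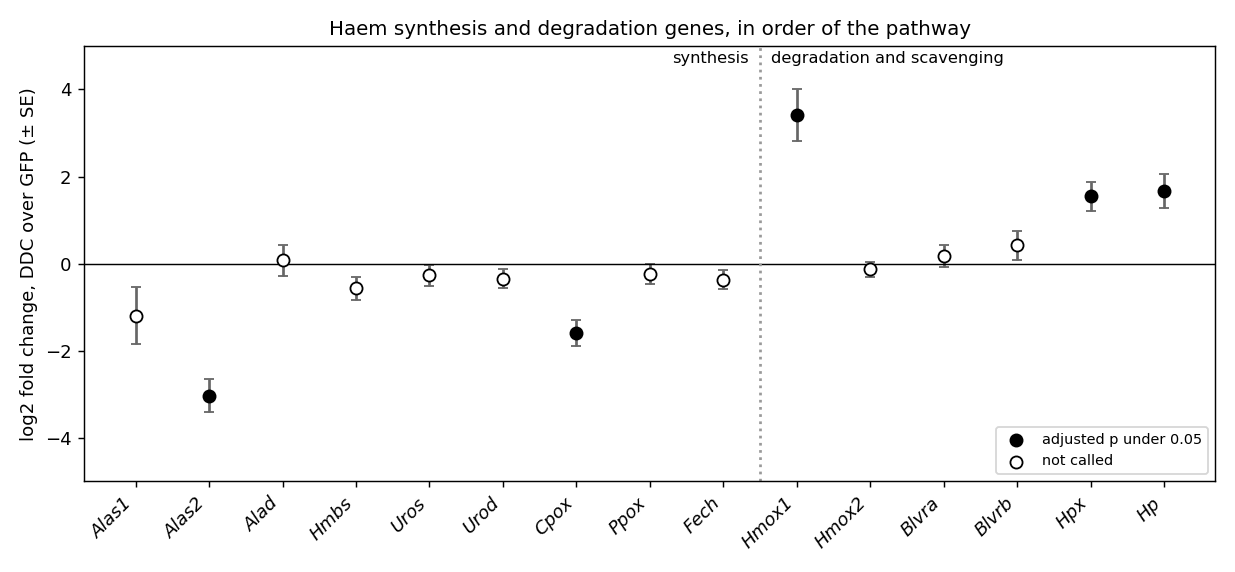
Log2 fold change of DDC over GFP hepatocytes (points, ± SE) for enzymes of haem synthesis in pathway order, and for degradation and scavenging genes. Cpox and Alas2 lie below 0 and Hmox1, Hpx and Hp above it as called genes (filled); Fech and Alas1 were not called (open).

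NRF2 is the transcription factor of the antioxidant response; it binds antioxidant response elements upstream of genes for glutathione and thioredoxin metabolism, the pentose phosphate route and conjugate export. Of 32 genes of this kind, 15 were higher (8, 8, 6 and 4) and 1, the superoxide dismutase Sod1 (-1.13 ± 0.31), lower (0, 0, 0 and 0), with a median of 1.04. In 24 glutathione transferase genes, 5 were higher (3, 4, 3 and 3) and 2 lower (0, 0, 0 and 0), with a median of 0.21 (-0.04 with members lacking counts in 1 group placed at their bound), so most members were not called higher. The core of the antioxidant response element, TGACNNNGC in either orientation, is in 3338 of 32851 RefSeq promoter windows (10.2%; the 250 bases before the start site, GRCm38.p6). Of the 20 genes of both lists that were called higher, 17 had a window and 5 held the core in at least 1: Abcc4, G6pdx, Nfe2l2, Txnrd1 and Ugdh. Some genes have several windows. Counted by window, as in the share of all promoters, 6 of 22 held it (27.3%). The stretches below carry it outside annotated exons (5′ to 3′ in the direction of the gene, core in capitals) and are shown because these 3 genes were called higher and hold it. A match describes letters in a window and is not evidence of binding.
Abcc4 start 1, reverse strand, chr14:118706220-118706469: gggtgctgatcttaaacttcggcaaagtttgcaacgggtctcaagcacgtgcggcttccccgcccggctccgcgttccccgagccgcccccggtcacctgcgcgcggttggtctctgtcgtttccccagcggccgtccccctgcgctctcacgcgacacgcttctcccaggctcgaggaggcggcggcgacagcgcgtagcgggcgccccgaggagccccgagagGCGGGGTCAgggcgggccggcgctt
Abcc4 start 2, reverse strand, chr14:118676932-118677181: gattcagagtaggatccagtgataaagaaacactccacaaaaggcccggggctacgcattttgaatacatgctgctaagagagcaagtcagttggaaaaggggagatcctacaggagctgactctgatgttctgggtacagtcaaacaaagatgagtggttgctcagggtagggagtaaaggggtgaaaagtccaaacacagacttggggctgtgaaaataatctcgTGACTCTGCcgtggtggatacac
Txnrd1, forward strand, chr10:82859009-82859178: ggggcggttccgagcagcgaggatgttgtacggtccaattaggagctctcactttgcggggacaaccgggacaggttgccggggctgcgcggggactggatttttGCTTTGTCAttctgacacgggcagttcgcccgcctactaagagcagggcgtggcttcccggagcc
Ugdh, reverse strand, chr5:65435950-65436092: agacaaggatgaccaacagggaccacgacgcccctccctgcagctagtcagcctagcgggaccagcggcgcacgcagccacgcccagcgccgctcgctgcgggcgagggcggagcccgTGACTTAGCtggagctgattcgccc

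Abcc4, which exports conjugates and bile acids across the basolateral membrane (chromosome 14, 118482692 to 118706219, reverse strand), stood at 17.6 and 18.7 CPM in the DDC libraries and 1.28 and 1.17 CPM in the GFP libraries (3.88 ± 0.41, adjusted p = 0.000445). Nqo1, a quinone reductase and the classic NRF2 target, stood at 25.5 and 35.7 CPM in the DDC libraries and 5.31 and 5.29 CPM in the GFP libraries (2.53 ± 0.33, adjusted p = 0.0011). Sulfiredoxin (Srxn1), which repairs peroxiredoxins, stood at 282 and 380.5 CPM in the DDC libraries and 34.1 and 36.6 CPM in the GFP libraries (3.23 ± 0.49, adjusted p = 0.00203). Each of these DDC libraries was above both GFP libraries, and the calls held with any library left out. The pentose phosphate enzyme Pgd stood at 179.6 and 181 CPM in the DDC libraries and 36 and 31.8 CPM in the GFP libraries (2.41 ± 0.35).

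Among the transferases, which join glutathione to electrophiles, Gsta1 (chromosome 9, 78230656 to 78242684, forward strand) stood at 128 and 128 CPM in the DDC libraries and 0.896 and 1.03 CPM in the GFP libraries (7.04 ± 0.84, adjusted p = 0.000688). Gstm3 stood at 3397 and 1503 CPM in the DDC libraries and 72.7 and 53.5 CPM in the GFP libraries (5.28 ± 0.78, adjusted p = 0.0019). For Gstm1 the levels were 5363 and 3939 CPM in the DDC libraries and 945 and 792 CPM in the GFP libraries (2.42 ± 0.54), and the microsomal Mgst3 rose by less (1.73 ± 0.26). The 2 DDC libraries were nearly equal for Gsta1 and differed for Gstm3, without overlap with the GFP libraries in either case. Gstm2 also rose (2.46 ± 0.72). Gstz1, which acts in tyrosine breakdown, was lower (-1.34 ± 0.35), as was Gstk1 (-0.92 ± 0.27). The call of Gstm1 ended without DDC replicate 1, GFP replicate 1 or GFP replicate 2 (adjusted p 0.0551 to 0.104). For Gstz1 no call was made with any 1 of the 4 libraries left out (adjusted p 0.0825 to 0.13). The Gsta and Gstm genes are near-identical paralogs, so the value of a single member is uncertain.

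Keratins 8 and 18, the partner filament proteins of hepatocytes and the main proteins of Mallory-Denk bodies, rose by more than 3 on the log2 scale. Krt8 (chromosome 15, 101996698 to 102004482, reverse strand) stood at 3542 and 2993 CPM in the DDC libraries and 259 and 216 CPM in the GFP libraries (3.78 ± 0.32, adjusted p = 0.000215). Krt18 (chromosome 15, 102028180 to 102032027, forward strand), which lies next to it, stood at 1826 and 1312 CPM in the DDC libraries and 146 and 105 CPM in the GFP libraries (3.65 ± 0.39, adjusted p = 0.000445). Within each group the libraries were close, and the groups were far apart. Krt23, a type I keratin, stood at 13 and 24.7 CPM in the DDC libraries and 1.54 and 2.13 CPM in the GFP libraries (3.36 ± 0.86), while Krt7, a keratin of bile ducts, was near zero, at 0.106 and 0.0891 CPM in the DDC libraries and 0 and 0 CPM in the GFP libraries, and was not tested. Of 14 keratin and Mallory-Denk body genes, 7 were higher (4, 4, 3 and 2) and none lower [0 and 0], with a median of 1.08. Transglutaminase 2 (Tgm2), which cross-links keratins, rose by 1.68 ± 0.40 and the desmosome protein Pkp2 by 0.97 ± 0.20. The call of Krt23 ended without DDC replicate 2, GFP replicate 1 or GFP replicate 2 (adjusted p 0.109 to 0.139). For Tgm2 no call was made without DDC replicate 1, GFP replicate 1 or GFP replicate 2 (adjusted p 0.0728 to 0.119). Pkp2 lost its call without GFP replicate 2 (adjusted p = 0.0949).

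Injured hepatocytes can take on features of bile duct and progenitor cells, a change marked by Sox9, osteopontin and surface proteins of ductal epithelium. Of 26 such genes, 16 were higher (13, 9, 7 and 6) and none lower [1 and 1] (median 4.24, 3.94 with members lacking counts in 1 group placed at their bound). Sox9, a transcription factor of bile ducts (chromosome 11, 112782224 to 112787760, forward strand), stood at 31.6 and 29.3 CPM in the DDC libraries and 3.01 and 2.13 CPM in the GFP libraries (3.56 ± 0.54, adjusted p = 0.00203). Tnfrsf12a, the receptor of the mitogen TWEAK, stood at 125 and 74.5 CPM in the DDC libraries and 7.81 and 7.36 CPM in the GFP libraries (3.72 ± 0.38, adjusted p = 0.000417). Integrin alpha 6 (Itga6), a laminin receptor, stood at 29.8 and 29.2 CPM in the DDC libraries and 0.960 and 0.619 CPM in the GFP libraries (5.20 ± 0.59, adjusted p = 0.000584). The groups did not overlap and the calls held with any library left out. The tight junction protein Cldn4 had 6.63 and 12.4 CPM in the DDC libraries and 0.128 and 0 CPM in the GFP libraries, a ratio of 147 (95% counting interval 40.6 to 1222), and Tspan8 had 1.86 and 5.12 CPM in the DDC libraries and no count in the GFP libraries, at least 36.5-fold. Epcam, a defining surface protein of cholangiocytes, was at 1.80 and 0.579 CPM in the DDC libraries and had no count in the GFP libraries. These ductal markers stood at low levels, and whether duct cells in the sort contribute to them was not tested. Cldn4 lost its call without GFP replicate 2 (adjusted p = 0.0713). Tspan8 was not called with any 1 of the 4 libraries left out (adjusted p 0.0532 to 0.15).

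Of 23 genes of the YAP growth-control pathway and its targets, 7 were higher (5, 5, 3 and 2) and none lower [0 and 0], with a median of 1.14. Tead1, a DNA-binding partner of YAP, stood at 24.7 and 19.9 CPM in the DDC libraries and 3.58 and 7.08 CPM in the GFP libraries (2.06 ± 0.36, adjusted p = 0.00386). Crim1, a membrane protein that binds growth factors, stood at 46.1 and 41.9 CPM in the DDC libraries and 9.85 and 12.2 CPM in the GFP libraries (2.00 ± 0.26, adjusted p = 0.00117). Ajuba, a scaffold that inhibits the LATS kinases, rose by 3.84 ± 0.74 and the receptor kinase Axl by 3.69 ± 0.73. Tgfb2 had 3.18 and 4.68 CPM in the DDC libraries and no count in the GFP libraries, at least 40.2-fold. Ajuba lost its call without GFP replicate 2 (adjusted p = 0.0713). Axl was not called without GFP replicate 1 or GFP replicate 2 (adjusted p 0.0557 to 0.0678). The call of Tgfb2 ended without GFP replicate 1 or GFP replicate 2 (adjusted p 0.0509 to 0.0524). Axl is also a macrophage gene and reached 819.5 CPM in sorted macrophages.

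Bile acid export, uptake and synthesis were examined as 3 gene lists, and the exporter list also holds pumps of other compounds. Called genes were mainly higher among exporters and lower among uptake and synthesis genes. The cause was not tested. Of 17 exporters, 7 were higher (5, 5, 2 and 2) and 1, the sterol transporter Abcg5 (-1.08 ± 0.34), lower (0, 0, 0 and 0; median 1.23). Besides Abcb1a and Abcc4, the phospholipid pump Abcb4 of the canalicular membrane stood at 799 and 905 CPM in the DDC libraries and 275 and 235 CPM in the GFP libraries (1.74 ± 0.42, adjusted p = 0.0159). Abcc1, a conjugate exporter, rose by 3.37 ± 0.64. Abcc12, a transporter of the same family, stood at 4.72 and 27.3 CPM in the DDC libraries and 0.128 and 0 CPM in the GFP libraries, a ratio of 256 (95% counting interval 70.6 to 2117). The groups did not overlap for any of these 3, though the DDC libraries differed widely for Abcc12. The call of Abcb4 ended without DDC replicate 2, GFP replicate 1 or GFP replicate 2 (adjusted p 0.078 to 0.122). For Abcc1 no call was made without GFP replicate 1 or GFP replicate 2 (adjusted p 0.0541 to 0.0627). Abcc12 lost its call without GFP replicate 1 or GFP replicate 2 (adjusted p 0.0514 to 0.0729).

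Of 14 uptake carriers, 7 were lower (3, 2, 2 and 4) and none higher [3 and 1] (median -0.66). Slc10a1, the sodium-dependent bile acid importer NTCP, stood at 125 and 124 CPM in the DDC libraries and 696 and 756 CPM in the GFP libraries (-2.54 ± 0.69, adjusted p = 0.0259). The organic anion importer Slco1b2 stood at 529 and 586 CPM in the DDC libraries and 2123 and 1802 CPM in the GFP libraries (-1.82 ± 0.38). Slc22a28, an organic anion carrier, stood at 0.901 and 0.312 CPM in the DDC libraries and 37 and 19 CPM in the GFP libraries (-5.54 ± 0.76, adjusted p = 0.00131). In all 3, both DDC libraries were below both GFP libraries. Slc10a1 lost its call with any 1 of the 4 libraries left out (adjusted p 0.0821 to 0.135). Slco1b2 was not called without DDC replicate 1, DDC replicate 2 or GFP replicate 1 (adjusted p 0.0579 to 0.0615).

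Of 20 synthesis genes, 8 were lower (1, 1, 2 and 2) and none higher [1 and 1] (median -0.81). Cyp7b1, the oxysterol hydroxylase of the alternative pathway and a male-biased gene, stood at 55.9 and 35.6 CPM in the DDC libraries and 493 and 404 CPM in the GFP libraries (-3.29 ± 0.47, adjusted p = 0.00166). Scp2, a peroxisomal sterol carrier and thiolase, stood at 1703 and 1744 CPM in the DDC libraries and 5419 and 4702 CPM in the GFP libraries (-1.55 ± 0.32). The acyl-CoA synthetase Slc27a2 (-1.97 ± 0.45) and Nr1h4, the bile acid receptor FXR (-1.02 ± 0.26), were lower too. Scp2 lost its call without DDC replicate 1, DDC replicate 2 or GFP replicate 1 (adjusted p 0.0551 to 0.0643). Slc27a2 was not called with any 1 of the 4 libraries left out (adjusted p 0.0528 to 0.0831). The call of Nr1h4 ended with any 1 of the 4 libraries left out (adjusted p 0.0613 to 0.134). With library totals alone, the adjusted p of Nr1h4 was 0.073.

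Most enzymes that process foreign compounds were not called, and those called were mainly lower. Of 54 cytochrome P450 genes, 2, Cyp2c55 and Cyp2c38, were higher (1, 1, 1 and 1) and 9 lower (6, 1, 1 and 2), with a median of -0.36 (-0.43 with bounds). Cyp4f14, a fatty acid hydroxylase, stood at 87.9 and 91.2 CPM in the DDC libraries and 344 and 269.5 CPM in the GFP libraries (-1.78 ± 0.32, adjusted p = 0.00461). Of 29 glucuronosyl- and sulfotransferase genes, 6 were lower (4, 3, 5 and 4) and none higher [0 and 0] (median -1.20). Ugt2b1 stood at 316 and 173 CPM in the DDC libraries and 1369 and 1349.8 CPM in the GFP libraries (-2.47 ± 0.43), and Sult1b1 at 12.5 and 12.2 CPM in the DDC libraries and 39.2 and 57.7 CPM in the GFP libraries (-1.98 ± 0.31). Both DDC libraries were below both GFP libraries for these genes. Of 15 carboxylesterases, which split esters of drugs and lipids, 5 were lower (4, 2, 2 and 3) and none higher [2 and 0] (median -1.44). Ces3b (chromosome 8, 105083753 to 105093929, forward strand) stood at 35.9 and 33.7 CPM in the DDC libraries and 718 and 754 CPM in the GFP libraries (-4.40 ± 0.42, adjusted p = 0.000264), and Ces3a at 470.2 and 538 CPM in the DDC libraries and 2461 and 2013 CPM in the GFP libraries (-2.15 ± 0.36). The carboxylesterases lie in clusters of paralogs, so single members are uncertain.

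Major urinary proteins (MUPs) are pheromone carriers made by male liver under the control of pulsed growth hormone, and they head a group of male-biased genes. Of 41 MUP and sex-dependent genes, 20 were lower (20, 11, 12 and 13) and 1, the female-biased repressor Cux2 (3.32 ± 0.56), higher (1, 1, 1 and 1; median -3.05, -2.92 with bounds). Mup3 stood at 493 and 154 CPM in the DDC libraries and 11159 and 8550.4 CPM in the GFP libraries (-4.93 ± 0.76, adjusted p = 0.00228). Mup7 stood at 16.6 and 0.757 CPM in the DDC libraries and 2441 and 2243 CPM in the GFP libraries (-8.08 ± 2.02), and Mup21 at 2.23 and 1.11 CPM in the DDC libraries and 492 and 295 CPM in the GFP libraries (-7.89 ± 1.56). Every GFP library was far above every DDC library, while the DDC libraries differed widely from each other for Mup7. Mup1 (-5.86 ± 0.68) and Mup12 (-6.04 ± 0.66) kept their calls with any library left out, and Mup18 had no count in the DDC libraries, at least 166-fold lower. The sizes for Mup22, Mup14 and Mup11 rested on DDC replicate 1. Mup22 stood at 2.07 and 0.134 CPM in the DDC libraries and 39 and 46.5 CPM in the GFP libraries (-5.31 ± 0.89), Mup14 at 2.44 and 0.0445 CPM in the DDC libraries and 75.7 and 74.8 CPM in the GFP libraries (-5.95 ± 1.40) and Mup11 at 1.33 and 0 CPM in the DDC libraries and 46.1 and 34 CPM in the GFP libraries (-5.95 ± 1.30). DDC replicate 2 held 3 counts of Mup22, 1 of Mup14 and 0 of Mup11, so no fold is given without DDC replicate 1. The call of Mup7 ended without DDC replicate 2, GFP replicate 1 or GFP replicate 2 (adjusted p 0.0582 to 0.108). For Mup21 no call was made without DDC replicate 2 (adjusted p = 0.072). Mup14 lost its call without DDC replicate 2, GFP replicate 1 or GFP replicate 2 (adjusted p 0.0692 to 0.0816). Mup11 was not called without DDC replicate 2, GFP replicate 1 or GFP replicate 2 (adjusted p 0.0523 to 0.0649). Reads of the MUP genes map to many near-identical copies, so the group is better measured than its members.

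Enzymes of the urea cycle and amino acid breakdown had more members lower than not: 21 of 38 (11, 5, 12 and 10) and none higher [0 and 0], with a median of -1.29. Gnmt, the methyltransferase that regulates methyl groups, stood at 543 and 461 CPM in the DDC libraries and 2497 and 3236 CPM in the GFP libraries (-2.51 ± 0.42, adjusted p = 0.00338). Hgd of tyrosine breakdown stood at 253 and 208 CPM in the DDC libraries and 617 and 609 CPM in the GFP libraries (-1.41 ± 0.23). The aspartate transaminase Got1 stood at 59.9 and 83.5 CPM in the DDC libraries and 253 and 472 CPM in the GFP libraries (-2.34 ± 0.41). All 3 were separate between groups and were called with any library left out. Tdo2, which starts tryptophan breakdown, fell (-1.94 ± 0.36), as did Afmid of the same pathway (-1.44 ± 0.26). Of 28 carbonic anhydrases and other liver enzymes, 11 were lower (2, 3, 6 and 6) and 2 higher (2, 1, 0 and 0). The lowered ones included urate oxidase (Uox, -2.01 ± 0.32) and the glycolate oxidase Hao1 (-1.51 ± 0.27), and the raised ones were the carbonic anhydrase Car13 (4.45 ± 0.91) and xanthine dehydrogenase (Xdh, 2.01 ± 0.50). The call of Car13 ended without GFP replicate 1 or GFP replicate 2 (adjusted p 0.0739 to 0.0744).

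Glucose and lipid genes moved less uniformly. Of 34 glucose genes, 6 were higher (1, 0, 0 and 0) and 8 lower (0, 1, 2 and 3). G6pc, which releases glucose, stood at 25.7 and 31.4 CPM in the DDC libraries and 447 and 285 CPM in the GFP libraries (-3.68 ± 0.87), and the pyruvate kinase Pkm, the form of most tissues other than liver, at 22.8 and 19.3 CPM in the DDC libraries and 2.62 and 3.71 CPM in the GFP libraries (2.73 ± 0.69). Of 36 fatty acid oxidation genes 1 was higher (1, 1, 0 and 0), the fatty acid receptor Cd36 (3.11 ± 0.65), and 1, Fabp1, lower (0, 0, 0 and 0), below the shares of all genes. Sterol and fatty acid synthesis had 2 higher (0, 2, 0 and 0) and 2 lower (1, 0, 1 and 1) of 41, among them Mlxipl, the carbohydrate-sensing factor ChREBP (-1.98 ± 0.39). Of 26 lipoprotein genes, 5 were lower (4, 0, 3 and 2) and 2 higher (1, 0, 0 and 0), with Apoa2 at 1933 and 1619.8 CPM in the DDC libraries and 7289 and 6725 CPM in the GFP libraries (-1.98 ± 0.42). G6pc lost its call without DDC replicate 1, DDC replicate 2 or GFP replicate 1 (adjusted p 0.0698 to 0.0898). Pkm was not called with any 1 of the 4 libraries left out (adjusted p 0.0653 to 0.138). The call of Cd36 ended without GFP replicate 1 or GFP replicate 2 (adjusted p 0.0681 to 0.0815). For Mlxipl no call was made without DDC replicate 2 (adjusted p = 0.0647). Apoa2 lost its call without DDC replicate 2 or GFP replicate 1 (adjusted p 0.0519 to 0.0811).

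Of 32 transcription factors of hepatocyte identity, 6 were lower (0, 1, 3 and 1) and none higher [4 and 1] (median -0.29). Cebpa, which drives liver metabolic genes, stood at 145 and 179 CPM in the DDC libraries and 482 and 534 CPM in the GFP libraries (-1.65 ± 0.38, adjusted p = 0.0136). Klf15, a regulator of amino acid breakdown and gluconeogenesis, stood at 65.7 and 114 CPM in the DDC libraries and 297 and 298 CPM in the GFP libraries (-1.72 ± 0.35). Zonation genes had 5 lower (3, 0, 2 and 1) and 1 higher (1, 1, 1 and 0) of 28. The lowered ones included the periportal enzymes Gls2 (-2.55 ± 0.53) and Sds (-3.06 ± 0.59), and the raised one was Cdh1, E-cadherin, at 227 and 290.0 CPM in the DDC libraries and 52.9 and 20.01 CPM in the GFP libraries (2.82 ± 0.59). The call of Cebpa ended with any 1 of the 4 libraries left out (adjusted p 0.055 to 0.0884). For Klf15 no call was made without DDC replicate 1 (adjusted p = 0.0655). Gls2 lost its call without DDC replicate 2 or GFP replicate 2 (adjusted p 0.0522 to 0.0835). Sds was not called without DDC replicate 2 (adjusted p = 0.0611). The call of Cdh1 ended without GFP replicate 2 (adjusted p = 0.0853).

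**Figure D4:**
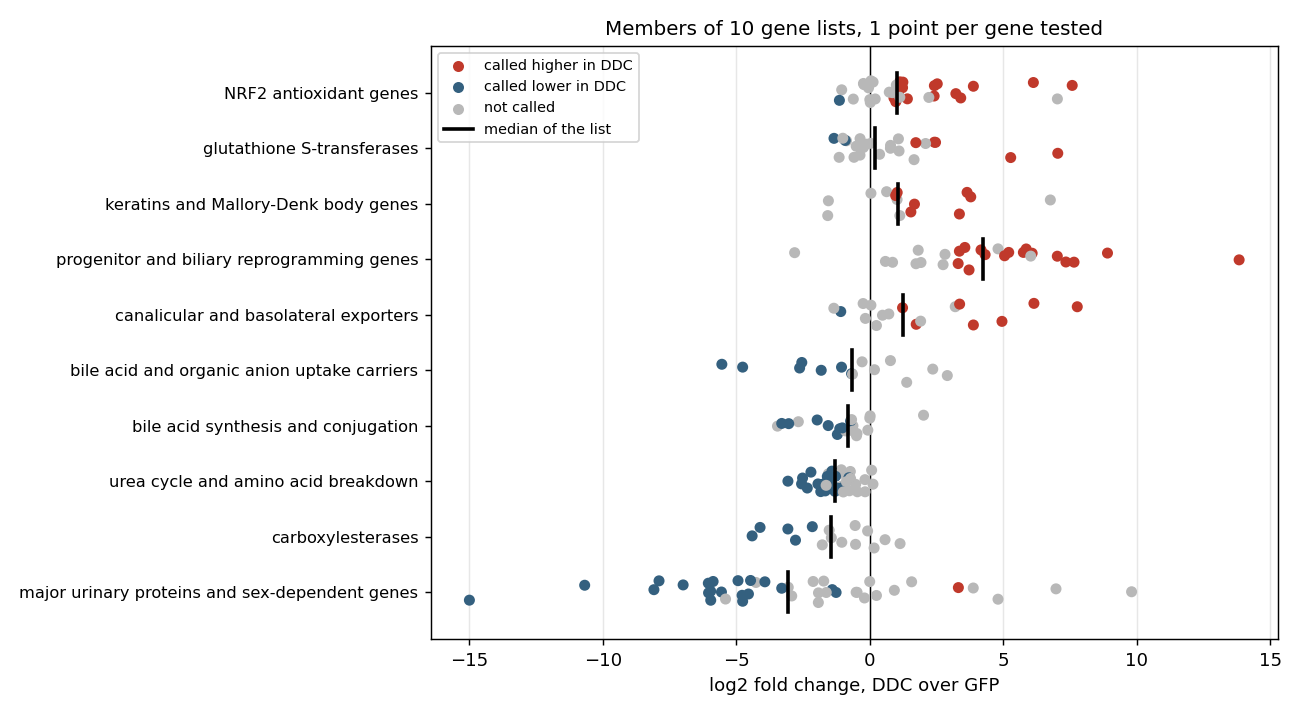
Log2 fold change of DDC over GFP hepatocytes for each tested member of 10 gene lists (1 point per gene, colour by call), with the list median as a bar. Medians run from 4.24 for progenitor and biliary genes to -3.05 for MUP and sex-dependent genes. Members lie on both sides of 0 in all 10 lists, although no urea cycle or amino acid gene is above 0.12.

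IL-6 family cytokines act on hepatocytes through gp130 (Il6st) and STAT3, and induce the acute phase proteins. In the main fit of this comparison the pathway's core genes were not called different. Il6 itself was at or near zero, with 0 and 0.0445 CPM in the DDC libraries and 0 and 0.0688 CPM in the GFP libraries, too few counts for a fold. Stat3 stood at 150.0 and 112 CPM in the DDC libraries and 109 and 98.8 CPM in the GFP libraries (0.34 ± 0.25, adjusted p = 0.358). Its feedback inhibitor Socs3 stood at 32.6 and 15.1 CPM in the DDC libraries and 11.6 and 12 CPM in the GFP libraries (1.01 ± 0.37, adjusted p = 0.0718). Over the alternative fits the log2 fold change of Socs3 ran from 0.36 to 1.47, and not every alternative left it uncalled. The IL-6 receptor chain Il6ra stood at 34.3 and 84.7 CPM in the DDC libraries and 56.8 and 139 CPM in the GFP libraries (-0.72 ± 0.52, adjusted p = 0.344; 0.05 without GFP replicate 2), and gp130 at 256 and 188 CPM in the DDC libraries and 183 and 181 CPM in the GFP libraries (0.29 ± 0.24, adjusted p = 0.424). Of 32 genes of the pathway, 4 were higher (12.5%) and 4 lower (12.5%), close to the 10.4% and 8.29% of all genes tested. With 1 library left out, neither count rose and both fell in some fits. The oncostatin M receptor Osmr stood at 12.6 and 9.71 CPM in the DDC libraries and 1.02 and 1.44 CPM in the GFP libraries (3.17 ± 0.55, adjusted p = 0.00385), and the cytokine Clcf1 at 8.69 and 11.3 CPM in the DDC libraries and 0.256 and 0.550 CPM in the GFP libraries (4.62 ± 0.65). The LIF receptor Lifr stood at 111 and 84.8 CPM in the DDC libraries and 623 and 467 CPM in the GFP libraries (-2.48 ± 0.37, adjusted p = 0.00203), and the kinase Pim3 at 25.9 and 54.7 CPM in the DDC libraries and 238 and 388 CPM in the GFP libraries (-2.96 ± 0.50). All 4 were separate between groups and kept their calls with any library left out.

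Acute phase genes were mixed. Of 34 positive acute phase genes, 10 were higher (6, 8, 5 and 5) and 3 lower (2, 1, 3 and 2), with a median of 0.29. The metalloreductase Steap4 stood at 689 and 294 CPM in the DDC libraries and 79.5 and 119 CPM in the GFP libraries (2.31 ± 0.36, adjusted p = 0.00222). In contrast the serpin Serpina3k stood at 1680.2 and 1362 CPM in the DDC libraries and 8111 and 10596 CPM in the GFP libraries (-2.62 ± 0.35, adjusted p = 0.00122). Of 36 negative acute phase and secreted proteins, 9 were lower (8, 2, 6 and 7) and none higher [1 and 1]. Serpina1c, a form of antitrypsin, stood at 41.4 and 37.3 CPM in the DDC libraries and 431 and 375 CPM in the GFP libraries (-3.36 ± 0.39, adjusted p = 0.00061). Igf1, the growth-hormone-dependent growth factor, stood at 278 and 242 CPM in the DDC libraries and 715 and 759.6 CPM in the GFP libraries (-1.50 ± 0.28). The DDC libraries lay below both GFP libraries for these 3 secreted proteins. Complement and coagulation had 7 higher (6, 2, 2 and 2) and 7 lower (3, 1, 4 and 3) of 39: the urokinase receptor Plaur (4.88 ± 0.65) rose, while complement C4a (-3.13 ± 0.48) fell. Igf1 lost its call without DDC replicate 2 (adjusted p = 0.0578). Serpin clusters hold near-identical paralogs, so single Serpina1 and Serpina3 members are uncertain.

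Growth control genes were raised in part. Of 40 cell cycle genes, 10 were higher (8, 3, 2 and 0) and none lower [1 and 0], with a median of 1.81. Cyclin D1 (Ccnd1), which starts the cycle, stood at 233 and 155 CPM in the DDC libraries and 23.9 and 20.01 CPM in the GFP libraries (3.14 ± 0.62, adjusted p = 0.00692). The replication helicase subunit Mcm6 stood at 64.6 and 45.2 CPM in the DDC libraries and 3.07 and 2.20 CPM in the GFP libraries (4.37 ± 0.79). Of 24 p53 and arrest genes, 9 were higher (5, 2, 0 and 2) and 1, Gadd45g (-2.78 ± 0.73), lower (0, 0, 0 and 0), with the inhibitor Cdkn1a, p21, at 58 and 80.1 CPM in the DDC libraries and 2.56 and 11.2 CPM in the GFP libraries (3.33 ± 0.73). Of 22 immediate early genes, 5 were higher (5, 5, 3 and 3) and none lower [2 and 1], led by Klf6 (3.05 ± 0.37, adjusted p = 0.000698) and Ier3 (3.92 ± 0.48, adjusted p = 0.000698), although the list median was -0.27. The call of Ccnd1 ended without GFP replicate 1 or GFP replicate 2 (adjusted p 0.0541 to 0.0714). For Mcm6 no call was made without GFP replicate 2 (adjusted p = 0.0557). Cdkn1a lost its call without DDC replicate 2 or GFP replicate 1 (adjusted p 0.0539 to 0.0785). Gadd45g was not called with any 1 of the 4 libraries left out (adjusted p 0.0782 to 0.137). The unfolded protein response had no gene called higher [1 and 0] or lower [2 and 1] among 30, with the smallest p at Ddit4 (-1.24 ± 0.42, adjusted p = 0.0586) and Ddit3 (0.93 ± 0.42, adjusted p = 0.137). Of 20 heat shock genes, Bag3 was higher (0, 0, 0 and 0) and Hspe1 and Dnaja1 lower (1, 0, 1 and 0), and of 12 mitochondrially encoded genes none was called in either direction [0 and 0].

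Some genes of the matrix, chemokines and the interferon response were higher in DDC hepatocytes, as were the stellate and macrophage markers given above. Of 35 matrix, adhesion and growth factor genes, 17 were higher (11, 9, 7 and 7) and 1, the laminin chain Lama3 (-3.70 ± 0.82), lower (0, 0, 1 and 0), with a median of 2.31. The laminin chain Lamc1 stood at 57.8 and 81.5 CPM in the DDC libraries and 13.8 and 11.5 CPM in the GFP libraries (2.46 ± 0.34, adjusted p = 0.00131), and the growth factor Tgfa, a ligand of the EGF receptor, at 71.8 and 76.7 CPM in the DDC libraries and 20.2 and 19.3 CPM in the GFP libraries (1.91 ± 0.23, adjusted p = 0.000698). Collagen Col4a2 (2.70 ± 0.43) and the fibroblast mitogen Pdgfa (2.47 ± 0.38) rose with them. These 4 were separate between groups and were called with any library left out.

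Of 20 chemokine ligands, 7 were higher (3, 4, 1 and 1) and 1, Ccl27a (-4.77 ± 1.17), lower (0, 0, 0 and 0), with a median of 2.24 (2.10 with bounds). Ccl2, which recruits monocytes (chromosome 11, 82035571 to 82037453, forward strand), stood at 29.8 and 25.4 CPM in the DDC libraries and 0.320 and 0.0688 CPM in the GFP libraries (7.07 ± 0.91, adjusted p = 0.00103), and its call held with any library left out. The highest immune library of this series, Ly6C-high monocytes of DDC livers, held 182 CPM of library totals. Cxcl10, an interferon-induced chemokine, was highest in DDC replicate 1, at 70.02 and 4.76 CPM in the DDC libraries and 1.02 and 1.03 CPM in the GFP libraries (5.17 ± 1.29, 2.21 without DDC replicate 1). Of 47 interferon-stimulated genes, 11 were higher (4, 6, 2 and 2) and 1, Igtp (-1.24 ± 0.34), lower (1, 0, 0 and 0), with the RNA sensor Ddx58 at 53.7 and 55.1 CPM in the DDC libraries and 22.4 and 23 CPM in the GFP libraries (1.26 ± 0.21) and the guanylate-binding protein Gbp2 at 11.6 and 5.92 CPM in the DDC libraries and 0.704 and 0.894 CPM in the GFP libraries (3.44 ± 0.56). The MHC class I gene H2-Q4 stood at 28.5 and 30.9 CPM in the DDC libraries and 11.3 and 11 CPM in the GFP libraries (1.41 ± 0.23), and 3 of 17 MHC genes were higher (2, 2, 2 and 2). The call of Cxcl10 ended without DDC replicate 1, GFP replicate 1 or GFP replicate 2 (adjusted p 0.121 to 0.198). For Ccl27a no call was made with any 1 of the 4 libraries left out (adjusted p 0.0517 to 0.128). The macrophage gene Cd68 stood at 14.4 and 23.4 CPM in the DDC libraries and 0.768 and 1.72 CPM in the GFP libraries and at up to 1589.8 CPM in the sorted immune libraries. Cd68 lost its call without GFP replicate 1 (adjusted p = 0.0722). The part of such cells in the matrix and immune genes was not tested.

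**Figure D5:**
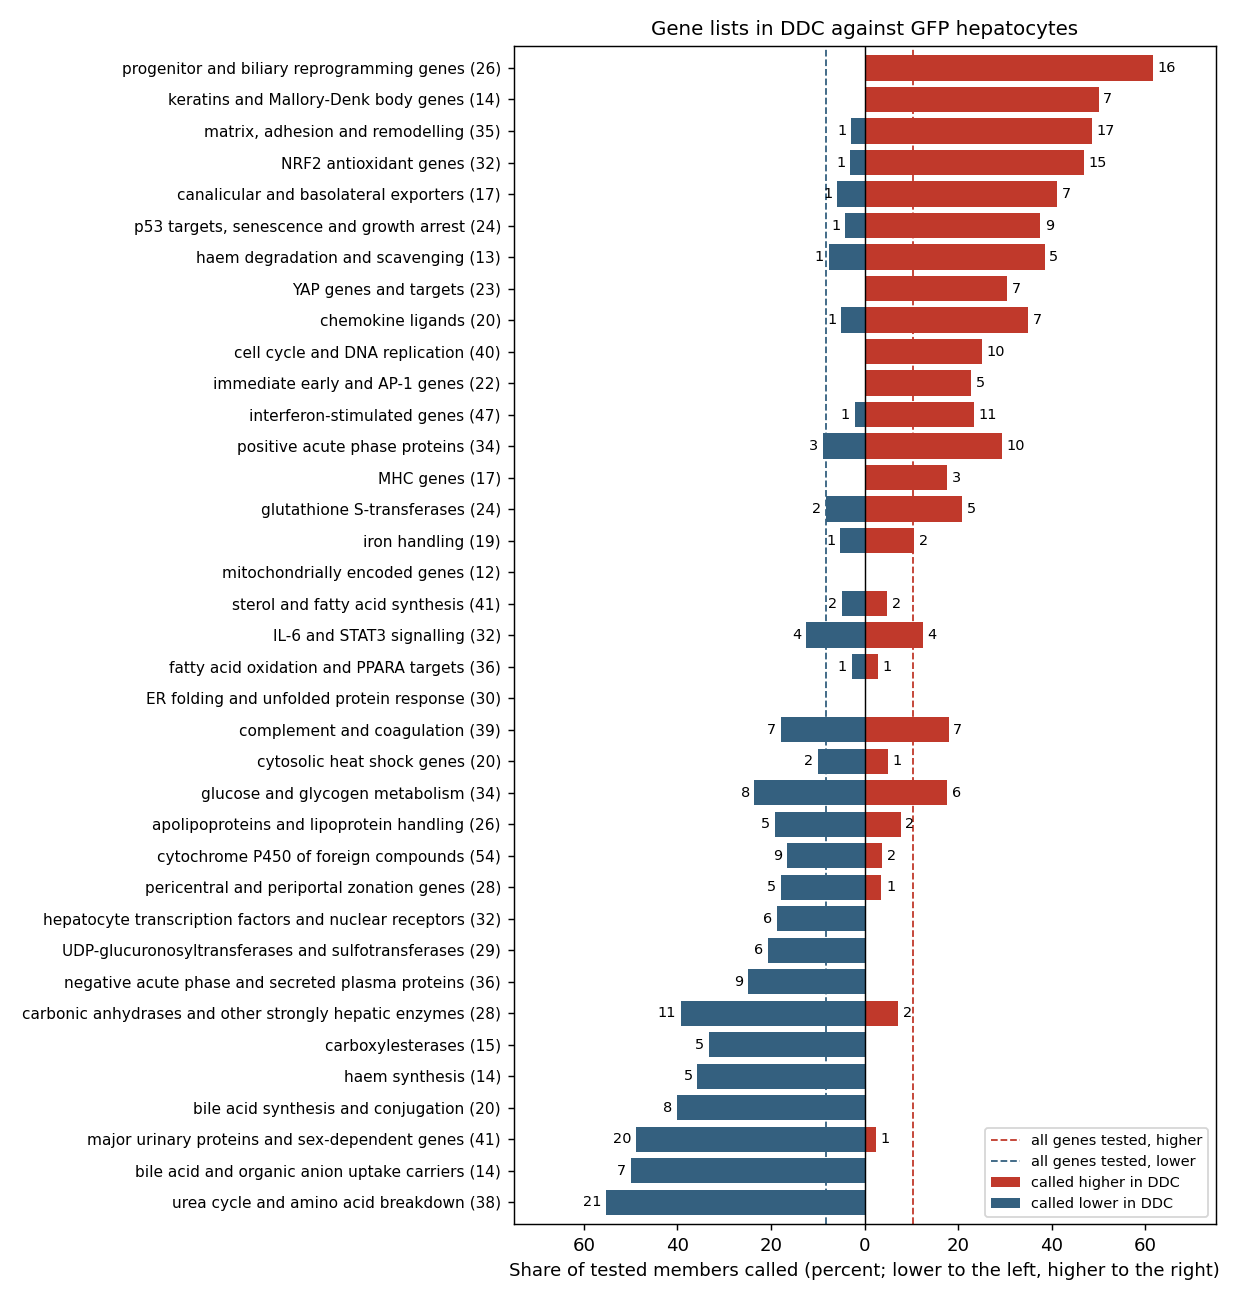
Share of the tested members of each of 37 gene lists called higher (right) or lower (left) in DDC against GFP hepatocytes, with the number of genes at the bar and the list size in parentheses. The dashed lines mark the shares of all genes tested, 10.4% higher and 8.29% lower; progenitor and keratin genes exceed the first most and urea cycle and uptake genes the second.

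The DDC libraries were also compared directly with the IL6 libraries, to see which of the genes above differ between diet injury and plasmid-borne IL-6. Over all genes, 796 (5.55%) were higher and 865 (6.03%) lower in DDC than in IL6 hepatocytes. These counts were 368 and 321 without DDC replicate 1, 362 and 246 without DDC replicate 2, 483 and 583 without IL6 replicate 1, and 383 and 518 without IL6 replicate 2. With library totals alone they were 3075 and 522. The IL6 libraries also differed in other measures. Mitochondrially encoded genes took 5.48% and 5.21% of counts in the DDC libraries and 2.33%, 2.05% and 2.76% in the IL6 libraries. Summed T and NK cell markers stood at 0.371 and 1.02 CPM in the DDC libraries and 12.1, 23.4 and 37.9 CPM in the IL6 libraries, and neutrophil markers at 1.64 and 2.63 CPM in the DDC libraries and 35.0, 18.4 and 2.31 CPM in the IL6 libraries. Alb took 8.08% and 7.67% of counts in the DDC libraries and 6.45%, 2.99% and 0.557% in the IL6 libraries, lowest in IL6 replicate 3. Without that library 760 genes were higher and 895 lower in DDC hepatocytes. The part of these measures in the differences was not tested. The most raised and most lowered genes were chosen on these same DDC libraries. That choice favours higher DDC values for the first and lower ones for the second, so their counts below are description. Of the 12 genes most raised in DDC against GFP, 7 were also higher in DDC than in IL6 hepatocytes and none lower. The calls of Marco and Anxa2 did not hold with single libraries left out (adjusted p 0.0799 to 0.179 for Marco and 0.0615 to 0.105 for Anxa2). Sprr1a stood at 109 and 72.6 CPM in the DDC libraries and 0, 0.0616 and 0 CPM in the IL6 libraries (1 count in all; adjusted p = 0.00015). Gsta1 stood at 128 and 128 CPM in the DDC libraries and 0.0789, 0 and 0.125 CPM in the IL6 libraries (adjusted p = 5.08e-05), and Abcb1a at 69.96 and 56.6 CPM in the DDC libraries and 4.18, 2.03 and 3.87 CPM in the IL6 libraries (4.24 ± 0.43, log2 fold change of DDC over IL6 ± SE; adjusted p = 0.00012). Cyp2c55 stood at 179 and 38.8 CPM in the DDC libraries and 0.316, 0.123 and 0.436 CPM in the IL6 libraries (8.51 ± 0.90, adjusted p = 0.000156). Ly6d was not called different, with 50.3 and 163 CPM in the DDC libraries and 227, 101 and 105 CPM in the IL6 libraries (-0.44 ± 0.87, adjusted p = 0.797).

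Stat3 and Socs3, which IL-6 is known to induce, were lower in DDC than in IL6 hepatocytes. Stat3 stood at 150.0 and 112 CPM in the DDC libraries and 339.5, 351 and 424 CPM in the IL6 libraries (-1.50 ± 0.24, adjusted p = 0.00194), and Socs3 at 32.6 and 15.1 CPM in the DDC libraries and 270.1, 292 and 216 CPM in the IL6 libraries (-3.44 ± 0.38, adjusted p = 0.000203). Sox9 stood at 31.6 and 29.3 CPM in the DDC libraries and 96, 87.2 and 88.7 CPM in the IL6 libraries (-1.57 ± 0.44, adjusted p = 0.0392). Of the 12 most lowered genes, 3 were higher in DDC than in IL6 hepatocytes (Slco1a1, Upp2 and Car3) and 1 lower (Mup3), and the calls of Upp2, Mup3 and Sox9 did not hold with single libraries left out (adjusted p 0.0546 to 0.0908 for Upp2, 0.0797 to 0.292 for Mup3 and 0.0564 to 0.229 for Sox9). With library totals alone the adjusted p was 0.0538 for Mup3 and 0.102 for Sox9, and it was 0.0692 for Mup3 with only the compared groups fitted. Slco1a1 stood at 44.7 and 34.7 CPM in the DDC libraries and 3.55, 2.22 and 2.68 CPM in the IL6 libraries (3.82 ± 0.44, adjusted p = 0.000301), and Mup3 at 493 and 154 CPM in the DDC libraries and 935, 1356 and 2294 CPM in the IL6 libraries (-2.24 ± 0.65, adjusted p = 0.0428). DDC and IL6 hepatocytes differ in genotype and viral vector as well as in diet and plasmid. IL6 replicate 3 also held 486 CPM of EGFP. The effects of these differences cannot be told apart.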

How the data were processed

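RNA of sorted hepatocytes was sequenced. The deposited table of 18668 genes holds whole read counts per gene for 13 hepatocyte libraries, and a second table holds the counts of 12 immune libraries. The authors used STAR, HTSeq, DESeq2 and the mm10 genome, per the submitters' processing notes; no version is given in the sources used here. The lowest gene total over the hepatocyte libraries was 10, so rarer genes are not listed. Library totals were 14714513 to 18428988 counts in the groups compared, so a floor of 3 counts over a group bounds what is called absent; intervals and floors cover counting error only.

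Counts were tested with edgeR 4.0.16 (quasi-likelihood F test, TMM scaling, filterByExpr, 1 term per group over all 13 hepatocyte libraries in 5 groups, 8 residual degrees of freedom). All groups entered so that the spread rests on more than 2 libraries a group; this assumes that groups vary alike. Benjamini-Hochberg adjustment ran over the 14339 genes that passed the filter, and a gene was called at an adjusted p under 0.05. Each SE was obtained as the absolute log2 fold change over the square root of F. Levels are CPM of TMM-scaled totals; immune levels are CPM of library totals. Gene symbols, biotypes and coordinates come from GENCODE M21 (GRCm38), promoters from RefSeq. Scripts were tested on simulated data.

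The members and the gene lists were chosen with earlier results of these data known. Named genes were 9 fixed genes and EGFP, the 12 called genes with the largest change in each direction (averaging 20 CPM or more, groups not overlapping, no predicted gene), up to 5 called members of each of 37 pathway lists (2 where none was called) and up to 3 of each of 10 marker lists, by adjusted p. Members chosen by adjusted p tend to be separate between groups through that choice, so their lack of overlap is description and no further support. Sod1, Gstm2, Gstk1, Abcg5, Cyp2c38, Cux2, Xdh, Lama3, Igtp, Epcam and the sex, haemoglobin and keratin checks were named after their values were seen.

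Alternatives were DESeq2 1.42.0, other scalings, no filter, only the compared groups, a replicate block and left-out libraries. In replicates of one group, counts differed by more than sampling noise (chi-square per degree of freedom 56.4 for DDC and 24.8 for GFP), so each was kept as 1 library.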

Additional observations from a re-analysis of the deposited data

Results flagged for a closer look

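The EGFP transcript lies outside the gene measurements compared here and was present where the labels give AAV-TBG-GFP. It stood at 1185 CPM in DDC replicate 1 and 1228 CPM in DDC replicate 2, against 2.18 and 2.41 CPM in the GFP libraries. In IL6 replicate 3 it stood at 486 CPM, a library whose labels give no AAV. The labels do not give the reporter sequence of the plasmids, so the EGFP row may not measure them. The values are given without an explanation.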

How the results depend on the processing

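Counts of called genes depended on the libraries more than on the tools. For DDC against GFP, between 302 and 833 genes were higher and 236 to 397 lower with 1 library left out, where the lone library left is assumed to vary like the other groups. Fitting only the compared groups gave 2340 higher and 2075 lower, leaving out IL6 replicate 3 and DDC STAT3KO replicate 3 gave 2191 and 1870, and library totals alone gave 1980 and 726. DESeq2 gave 1985 higher and 1582 lower. For DDC against IL6, between 362 and 760 genes were higher and 246 to 895 lower with 1 library left out, and library totals alone gave 3075 and 522. Of 184 called named genes, 71 kept their call in every alternative, 9 of the 12 most raised and 6 of the 12 most lowered among them. Left-out libraries ended between 47 and 82 of these calls, and each other alternative at most 5. The cause was not tested. The sign of the uncalled Il6ra turned: its log2 fold change ran from -1.51 to 0.0489 with 1 library left out. Stellate markers called higher were 4 with edgeR and 12 with DESeq2.

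Whether the replicate numbers pair the libraries is not known. Same-numbered libraries of different groups correlated at -0.187 to 0.290 in their deviations from the group mean, over 23 pairs. Of 13 libraries, 5 correlated best with their own number. In a group of 2 libraries the deviations mirror each other, so this check cannot decide on pairing for DDC and GFP. With the replicate block, 1631 genes were higher and 1223 lower for DDC against GFP, and 808 and 838 for DDC against IL6. The block ended the DDC against IL6 call of Mup3 (adjusted p = 0.0516) and the DDC against GFP calls of Bag3, H2-DMb1, Hmgcs1 and Thrsp (0.0569 to 0.0700).

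With 2 libraries a group, the spread is borrowed from other groups. Diet, genotype, viral vector and injection cannot be told apart. Low genes are limited by depth: a gene absent from the GFP libraries is bounded, not measured, and counts cannot separate paralogs.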

Other observations

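Some called genes had no count in 1 group. Among raised genes, 73 had no count in either GFP library, and among lowered genes 16 had none in either DDC library. Besides Ly6d and Sprr1a, the epithelial genes Plet1, a surface protein of progenitor and ductal epithelium, and Ahnak2, a scaffold protein, were at least 186-fold higher, the intestinal cadherin Cdh17 at least 155-fold and the protease inhibitor Slpi at least 146-fold (a floor of 3 counts over the GFP group). The hydrogen peroxide producing oxidase Duox2 and the steroid reductase Srd5a2 were at least 46.5-fold higher, and Krt5, a keratin of basal epithelium, and the neutrophil chemokine Cxcl5 at least 4.4-fold. On the lowered side the Wnt inhibitor Dkk4 was at least 13.7-fold lower and Frmpd1 at least 16.4-fold. Leukocyte genes were also in this set: Ltb, a lymphotoxin subunit, averaged 0.359 CPM in the DDC libraries and reached 1262 CPM in an immune library, and Cytip averaged 1.25 CPM and reached 333 CPM. Slpi averaged 14.3 CPM in the DDC libraries and reached 212 CPM in neutrophils of DDC livers. The highest immune library was above the DDC mean for 64 of the 73 genes (87.7%) and for 1217 of all 1486 raised genes (81.9%), and over 10-fold above it for 41 (56.2%) and 443 (29.8%). The immune libraries also held hepatocyte markers, at 36.1 to 6041 CPM summed. Neither the part of immune cells in the hepatocyte levels nor that of hepatocyte RNA in the immune levels was tested. These genes were named after their values were seen.

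Protein-coding genes made up most of the raised genes and a smaller share of the lowered ones. Of 12849 coding genes tested, 1449 (11.3%) were higher and 996 (7.75%) lower. Of 1022 other RNA genes, 26 (2.54%) were higher and 139 (13.6%) lower, and of 452 pseudogenes, 10 (2.21%) and 52 (11.5%).

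The DDC mice carry a floxed Stat3 allele and the GFP mice do not, so genes around Stat3 may differ in strain origin. Of 162 genes tested within 5 megabases on either side, 17 were higher and 7 lower, 14.8% called, against 18.6% of all genes, and their median log2 fold change was 0.10.

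The levels of raised genes were set against the sorted immune libraries of the same series. Of the 472 raised genes averaging 20 CPM or more, 167 stood higher in DDC hepatocytes than in any of the 12 immune libraries, and 174 stood below the mean of DDC liver macrophages. Of the 12 most raised genes, 5 stood above every immune library. The same counts were not made over all genes tested. The immune libraries also held hepatocyte markers, which summed to 6041 and 4187 CPM in the libraries labelled T and 36.1 CPM in a Ly6C-high monocyte library. Gsta1 and Gstm3 were highest, among immune libraries, in a library labelled T, at 257 and 4857 CPM. The part of hepatocyte RNA in these counts was not tested.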
